A study of Rattus norvegicus with 8 samples.

Results

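The histone gene probe sets are the rows of the array table whose annotated gene symbol belongs to a histone H1, H2A, H2B, H3 or H4 gene. They were chosen by symbol alone, and 32 of the 31042 probe sets carried such a symbol. The family itself was put forward with its doxorubicin-against-control values known, so those values are given here as a description and nothing about histone genes as a group is tested with them. Of the 32 probe sets, 19 read a single named gene and 13 carried several symbols (multi-gene), because histone genes of one type are nearly identical in sequence. By type, 22 belonged to replication-dependent histones and 10 to replacement variants.

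RNA came from isolated hearts of male Wistar rats of about 300 g. Each heart was perfused through the aorta for 2 h in a Langendorff apparatus whose perfusate was not recirculated. Control hearts (n = 4) received no drug, and doxorubicin hearts (n = 4) received 2 µM doxorubicin, an anthracycline that intercalates into DNA and poisons topoisomerase II. The labels number the 4 hearts of each group as biological replicates, give no age, and name the tissue only as heart. There is a single time point.

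Histones are the proteins around which DNA is wound: an octamer of H2A, H2B, H3 and H4 forms the nucleosome core, and H1 binds the linker DNA. Replication-dependent histone genes lie in clusters, lack introns, are transcribed mainly in S phase, and usually give messages that end in a stem-loop in place of a poly(A) tail. Variants such as H3.3 and H2A.Z are made throughout the cell cycle from polyadenylated messages and replace the core histones in non-dividing cells, to which most adult cardiomyocytes belong. The standard Affymetrix labelling starts from the poly(A) tail, so an array level of a replication-dependent gene reads mainly its polyadenylated transcripts. Anthracyclines are known to displace histones from chromatin.

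The windows before the annotated gene starts show how alike and how different these genes are. They are the 250 bases ahead of the start, from RefSeq's annotation of rat assembly GRCr8, H2ac18 at chr2:186497021-186497270 (plus strand), H2bc18 at chr2:186526947-186527196 (plus strand), Hist1h2bq at chr17:41869342-41869591 (minus strand), H4cl3 at chr17:47494889-47495138 (minus strand), H2az1 at chr2:229028845-229029094 (plus strand), H3f3b at chr10:101757637-101757886 (minus strand) and H1f2 at chr17:41820454-41820703 (minus strand). The first 4 stand for genes named by multi-gene probe sets that were lower after doxorubicin, H2az1 and H3f3b for the variants, and H1f2 for a replication-dependent gene that was not called changed. Other multi-gene probe sets that name H2bc18, Hist1h2bq or H4cl3 were not called, so a fall of these genes themselves is not shown. Capitals mark matches on either strand to the TATA box (TATAAA), the CCAAT box (CCAAT), the octamer of histone H2B promoters (ATGCAAAT) and the GC box (GGGCGG).
H2ac18: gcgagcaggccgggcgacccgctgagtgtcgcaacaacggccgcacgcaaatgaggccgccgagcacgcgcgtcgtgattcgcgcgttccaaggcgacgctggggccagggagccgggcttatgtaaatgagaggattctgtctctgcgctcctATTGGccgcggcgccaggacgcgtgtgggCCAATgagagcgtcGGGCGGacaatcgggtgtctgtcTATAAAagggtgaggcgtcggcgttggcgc
H2bc18: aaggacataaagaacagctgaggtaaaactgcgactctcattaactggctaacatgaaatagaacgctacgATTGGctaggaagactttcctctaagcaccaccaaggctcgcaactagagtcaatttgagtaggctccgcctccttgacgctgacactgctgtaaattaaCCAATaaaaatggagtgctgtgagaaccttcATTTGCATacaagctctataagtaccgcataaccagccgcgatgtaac
Hist1h2bq: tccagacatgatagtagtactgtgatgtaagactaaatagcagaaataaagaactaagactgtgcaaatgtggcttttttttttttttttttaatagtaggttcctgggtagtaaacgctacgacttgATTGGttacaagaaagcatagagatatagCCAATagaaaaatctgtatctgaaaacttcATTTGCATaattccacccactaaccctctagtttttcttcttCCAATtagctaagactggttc
H4cl3: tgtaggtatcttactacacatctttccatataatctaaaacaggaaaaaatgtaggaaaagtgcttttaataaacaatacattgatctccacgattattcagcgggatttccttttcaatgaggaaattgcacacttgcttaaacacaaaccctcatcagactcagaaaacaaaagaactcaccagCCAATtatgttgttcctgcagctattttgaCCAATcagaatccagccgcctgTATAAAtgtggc
H2az1: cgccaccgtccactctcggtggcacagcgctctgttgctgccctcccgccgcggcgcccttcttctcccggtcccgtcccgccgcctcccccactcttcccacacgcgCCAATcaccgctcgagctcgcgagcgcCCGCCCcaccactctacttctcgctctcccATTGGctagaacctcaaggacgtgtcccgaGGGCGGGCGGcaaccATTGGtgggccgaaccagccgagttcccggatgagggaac
H3f3b: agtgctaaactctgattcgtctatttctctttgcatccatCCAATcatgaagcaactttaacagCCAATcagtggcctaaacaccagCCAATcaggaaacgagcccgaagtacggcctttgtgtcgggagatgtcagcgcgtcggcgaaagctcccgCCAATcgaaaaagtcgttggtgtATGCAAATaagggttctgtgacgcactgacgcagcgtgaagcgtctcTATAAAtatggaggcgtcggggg
H1f2: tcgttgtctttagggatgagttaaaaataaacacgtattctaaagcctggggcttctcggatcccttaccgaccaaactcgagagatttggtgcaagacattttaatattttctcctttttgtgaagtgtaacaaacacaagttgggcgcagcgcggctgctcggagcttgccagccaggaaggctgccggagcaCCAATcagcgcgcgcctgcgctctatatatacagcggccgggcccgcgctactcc

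Of the 50 gene IDs that the 32 probe sets name, 49 were found in the RefSeq table and 45 had such a window. CCAAT stood in 32 of 34 windows of replication-dependent genes (94.1%) and in 7 of 11 windows of variant genes (63.6%), against 34.3% of 27457 windows of all genes, 1 per gene. TATAAA stood in 44.1% and 27.3% of them, against 13.1% of all. ATGCAAAT stood in 7 of 13 H2B windows and 5 of 12 H2A windows, against 412 of all 27457, and among variants in H3f3b alone. GGGCGG stood in 23.5% of replication-dependent and 45.5% of variant windows, against 32.4% of all. GC box matches can share letters, as a pair does in H2az1. A match is a description of the letters, not a bound site. The windows of Hist2h2aa2 and H2ac18, the H2A genes read by one probe set, shared an unbroken run of 221 bases, so this probe set reads a pair of genes that are alike upstream too. The window of H1f2 lies inside the long gene model of H4cl1. The window of H4cl1 lay wholly inside the neighbouring gene H3c1, so its sequence is not shown here as a promoter. It is still among the 34 counted windows, with a CCAAT match. Of the 4 H4 windows 2 held CCAAT, that of H4cl1 included.

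Replication-dependent histone messages were lower in doxorubicin hearts at 4 probe sets, which read H4, H2A and H2B genes, by 1.80-fold to 8.08-fold. No histone probe set was called higher. A probe set is called when its adjusted p in limma, Benjamini-Hochberg over all 31042 probe sets, is under 0.05. Of all probe sets, 2.21% were called, 1.52% lower and 0.689% higher, beside 4 of 32 lower and 0 of 32 higher here. Without adjustment, limma gave p under 0.05 for 9 lower and 7 higher histone probe sets of 32. Of all 31042 probe sets, it did so for 1814 lower and 2400 higher. In bulk tissue such as this, fewer cells of a type and less RNA per cell cannot be told apart.

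**Figure D1:**
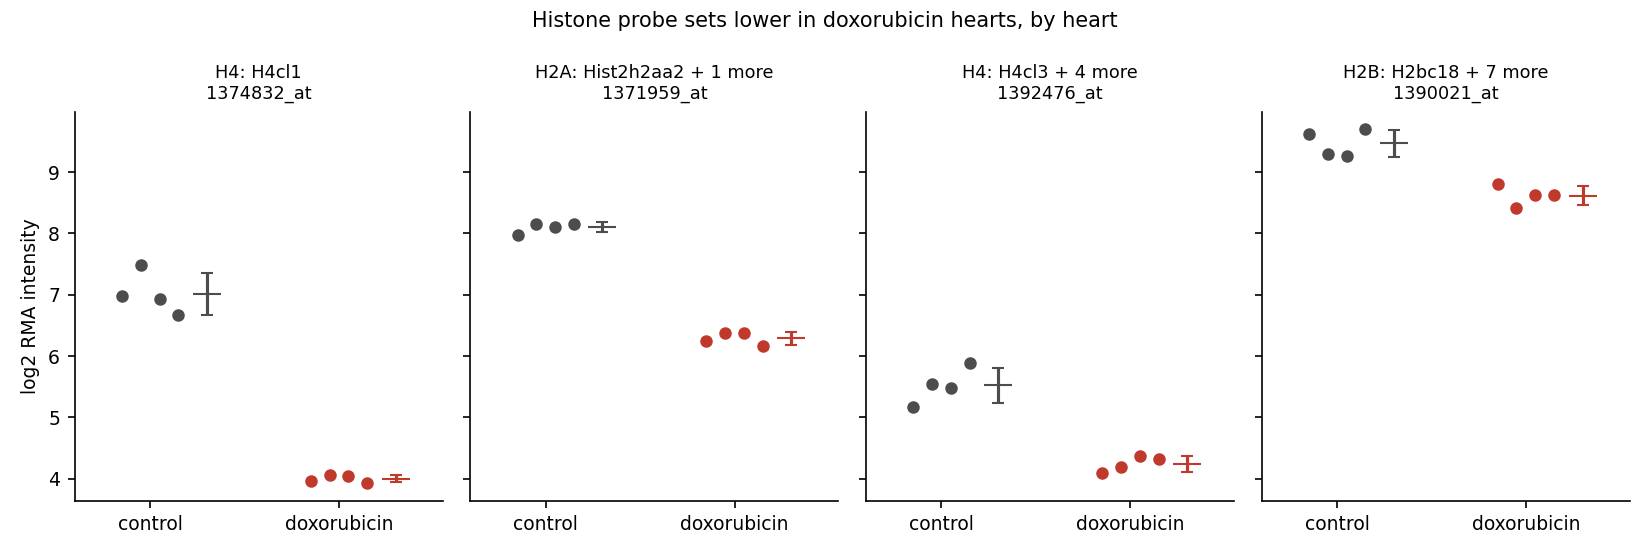
Log2 RMA intensity of the 4 called histone probe sets in each control (grey) and doxorubicin (red) heart, with the group mean and SD beside the points. In every panel all doxorubicin hearts lie under all control hearts, by a gap of 0.46 to 2.61 log2.

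H4cl1, a histone H4 gene, had the largest difference of the 32 probe sets. Its probe set (1374832_at) stood at 6.98, 7.48, 6.93 and 6.67 log2 in control hearts 1 to 4 and at 3.97, 4.06, 4.04 and 3.93 log2 in doxorubicin hearts 1 to 4. The groups were apart by 2.61 log2, and the control hearts spread over 0.81 log2 while the doxorubicin hearts spread over 0.13. The group means were 7.02 ± 0.34 and 4.0 ± 0.06 log2 (SD, n = 4), a log2 difference of -3.02 (SE 0.14). The 25% of probe sets that are dimmest average less than 4.16 log2 over the hearts, a range called dim here, and the doxorubicin mean lies in it, so its fold is uncertain. With an offset of 16 added before log2 the difference was -2.19 (adjusted p = 0.000233 in limma).

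The annotated H4cl1 gene is unusual in extent, which bears on what the probe set may read. It spans 63790 bases in the RefSeq table, where most histone genes are short and intronless, and 6 other histone genes overlap it: H3c1, Hist1h2af, Hist1h2ah, H1f2, H1f6 and Hist1h2bq. Single-gene probe sets of 4 of these were not called, with log2 differences of -0.45 for H3c1, -0.05 for Hist1h2af, 0.13 for H1f2 and -0.20 for H1f6. The means of H3c1, Hist1h2af and H1f6 over all hearts lay in the dim range, which leaves little room for a fall. For H3c1, all doxorubicin hearts lay under all control hearts. Hist1h2bq is named only by multi-gene H2B probe sets, 1390021_at, called lower (-0.85), and the dim 1391301_at, not called (-0.10). Whether the H4cl1 probe set reads other transcripts of this stretch was not tested.

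The H2A probe set shared by Hist2h2aa2 and H2ac18 (1371959_at) had the smallest SE of the 4. It stood at 7.98, 8.16, 8.10 and 8.16 log2 in control hearts and at 6.24, 6.38, 6.38 and 6.16 log2 in doxorubicin hearts. Every doxorubicin heart was at least 1.60 log2 under every control heart. The means were 8.10 ± 0.09 and 6.29 ± 0.11 log2 (SD, n = 4), and the log2 difference was -1.81 (SE 0.07), a 3.51-fold fall with both groups well above the dim range. Both genes encode a core H2A of the replication-dependent kind. Hist2h2be, an H2B gene of the same cluster, has its own probe set, which was not called at 4.27, 4.34, 4.33 and 4.35 log2 in control hearts and 4.33, 4.47, 4.51 and 4.62 log2 in doxorubicin hearts (difference 0.16, SE 0.07). Its control mean of 4.32 log2 lay little above the dim range, so a fall had little room to show. H2bc18, an H2B gene also on chromosome 2, is among the 8 genes named by 1390021_at, which was called lower (-0.85, SE 0.12).

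Of the H2B genes, which pair with H2A in the nucleosome, a bright multi-gene probe set fell. This probe set (1390021_at) names H2bc18, H2bcl1, H2bc12l1, H2bc6, H2bcl2, Hist1h2bc, Hist1h2bq and Hist1h2bg. It stood at 9.62, 9.29, 9.27 and 9.70 log2 in control hearts and at 8.81, 8.42, 8.62 and 8.62 log2 in doxorubicin hearts, with a gap of 0.46 between the groups. The log2 difference was -0.85 (SE 0.12). A second probe set (1391301_at), which names the same 8 genes and also H2bc12 and Hist1h2bd, was dim and not called. Its hearts stood at 3.72, 3.62, 3.71 and 3.60 log2 without drug and at 3.61, 3.54, 3.54 and 3.57 log2 with it (-0.10, SE 0.05). The remaining H2B probe sets, H2bc1 (a testis form), H2bc8 and Hist3h2ba, had means over all hearts of 3.40 to 4.10 log2, all in the dimmest 25%, and differences of -0.08 to 0.05.

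Histone H4 is read by 5 probe sets, and they did not move alike. Besides H4cl1, 3 of them carry the same 5 symbols, H4cl3, Hist4h4, H4c14, Hist1h4m and Hist1h4b. One (1392476_at) stood at 5.17, 5.55, 5.48 and 5.88 log2 in control hearts and at 4.09, 4.19, 4.37 and 4.32 log2 in doxorubicin hearts. It fell by 1.27 log2 (SE 0.13), with a gap of 0.79 between the groups. Another (1374600_at) read 7.78, 7.54, 7.39 and 7.36 log2 against 7.44, 7.13, 7.22 and 7.42 log2, groups that overlap (-0.21, SE 0.11). The remaining one (1372726_at) read 6.43, 6.67, 6.33 and 6.34 log2 against 6.48, 6.27, 6.26 and 6.46 log2, also overlapping (-0.08, SE 0.09). So probe sets with identical gene names spanned from no call to a 2.42-fold fall, and the annotation does not tell which H4 transcript each reads. The single-gene probe set of Hist4h4 (1369728_at), whose gene ID is not in the RefSeq table, was not called. It stood at 5.32, 5.24, 4.73 and 4.86 log2 in control hearts and at 4.48, 4.41, 4.71 and 4.47 log2 in doxorubicin hearts (-0.52, SE 0.13), without overlap but with a gap of only 0.02. Without control 3 it was called (-0.62, adjusted p = 0.0488 in limma).

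**Figure D2:**
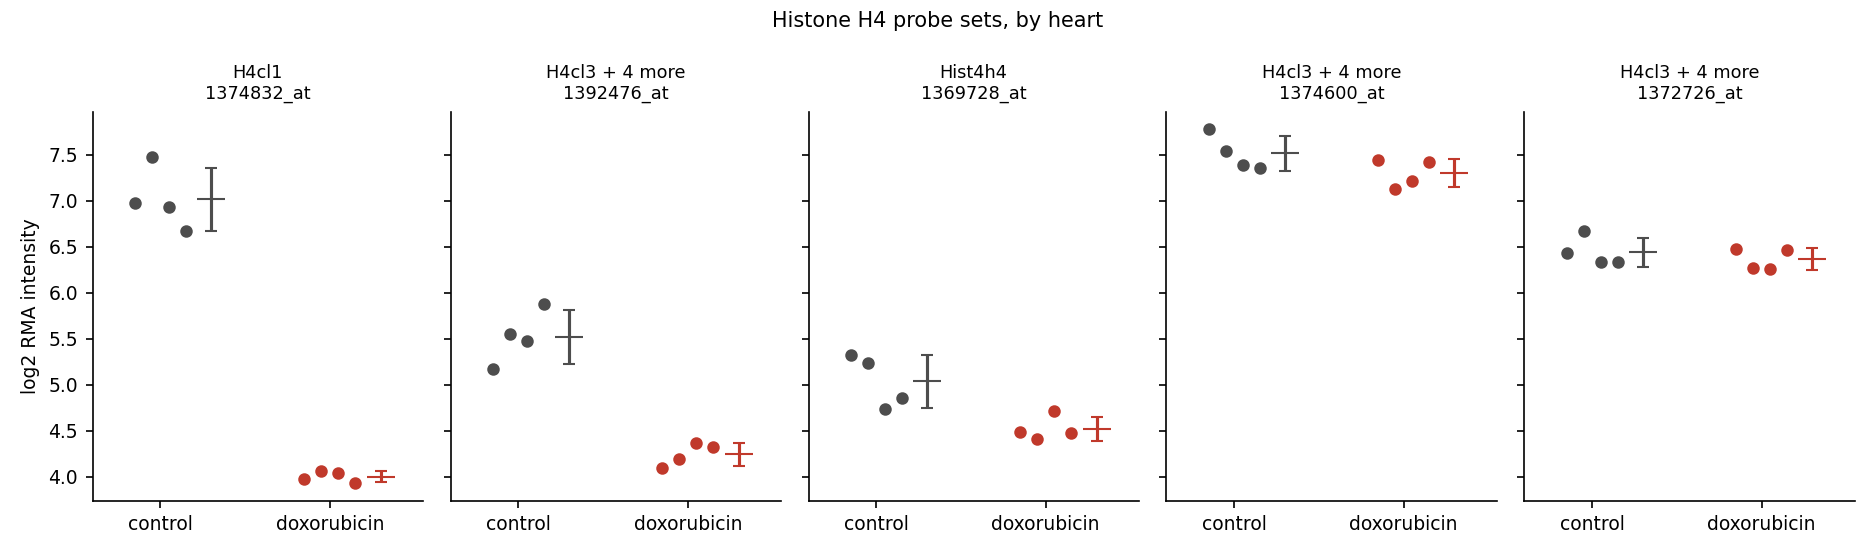
Log2 RMA intensity of the 5 histone H4 probe sets in each control (grey) and doxorubicin (red) heart, with group mean and SD. The first panel from the left (H4cl1) and the one beside it (1392476_at) separate the groups widely, by 2.61 and 0.79 log2, while the panels of 1374600_at and 1372726_at overlap.

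Replication-dependent H3 genes had lower values without a call. The probe set of H3c13 and Hist2h3c2 (1384367_at) stood at 4.83, 5.03, 5.23 and 4.84 log2 in control hearts and at 4.48, 4.33, 4.71 and 4.44 log2 in doxorubicin hearts. Its groups did not overlap (gap 0.11), and its difference of -0.49 (SE 0.11) had an adjusted p of 0.0515 in limma, just over the threshold. It was called without control 1 (adjusted p = 0.046), without doxorubicin 3 (0.0415), with array weights (0.0236), with an intensity trend (0.0376) and with the dimmest 25% left out (0.0407), and with the replicate number as a block (0.0336). The difference was smaller and uncalled when the hybridization controls entered as a covariate (-0.29, adjusted p = 0.875) and with an offset of 16 before log2 (-0.31, adjusted p = 0.0799). Median centring (-0.47, adjusted p = 0.0695 in limma) and repeated quantile normalization (-0.47, adjusted p = 0.0711) also gave no call. H3c1 (1388276_at) stood at 4.03, 4.83, 4.44 and 4.24 log2 against 3.90, 4.01, 3.95 and 3.88 log2 (-0.45, SE 0.14). Its doxorubicin mean of 3.93 log2 lay in the dim range. Control 2 had the highest value for both H3c1 and H4cl1, which overlap. For other genes overlapping H4cl1, the highest control was control 1 (Hist1h2af), control 3 (H1f2) and control 4 (H1f6).

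Linker histone and further H2A genes of the replication-dependent class did not pass. H1f2, the H1 gene read at 10.21 log2 on average, stood at 10.25, 10.07, 10.27 and 9.97 log2 in control hearts and 10.44, 10.14, 10.27 and 10.24 log2 in doxorubicin hearts (0.13, SE 0.09). H1f4, another linker histone gene, stood at 5.94, 5.79, 5.86 and 5.72 log2 against 5.88, 5.88, 5.89 and 5.99 log2 (0.08, SE 0.06). H1f6, a testis H1, stood at 4.29, 4.19, 4.12 and 4.31 log2 against 4.04, 3.84, 4.13 and 4.09 log2 (-0.20, SE 0.08). In all 3 the groups overlapped. The H2A gene H2ac25 (1371765_at) read 7.48, 7.29, 7.21 and 7.46 log2 against 7.74, 7.44, 7.59 and 7.59 log2 (0.23, SE 0.09), and its dimmer second probe set differed by 0.10. H2ac1 (a testis form), Hist1h2af and a 7-symbol H2A probe set that includes Hist1h2ac had differences of -0.05 to 0.02 and means over all hearts of 3.91 to 4.69 log2.

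**Figure D3:**
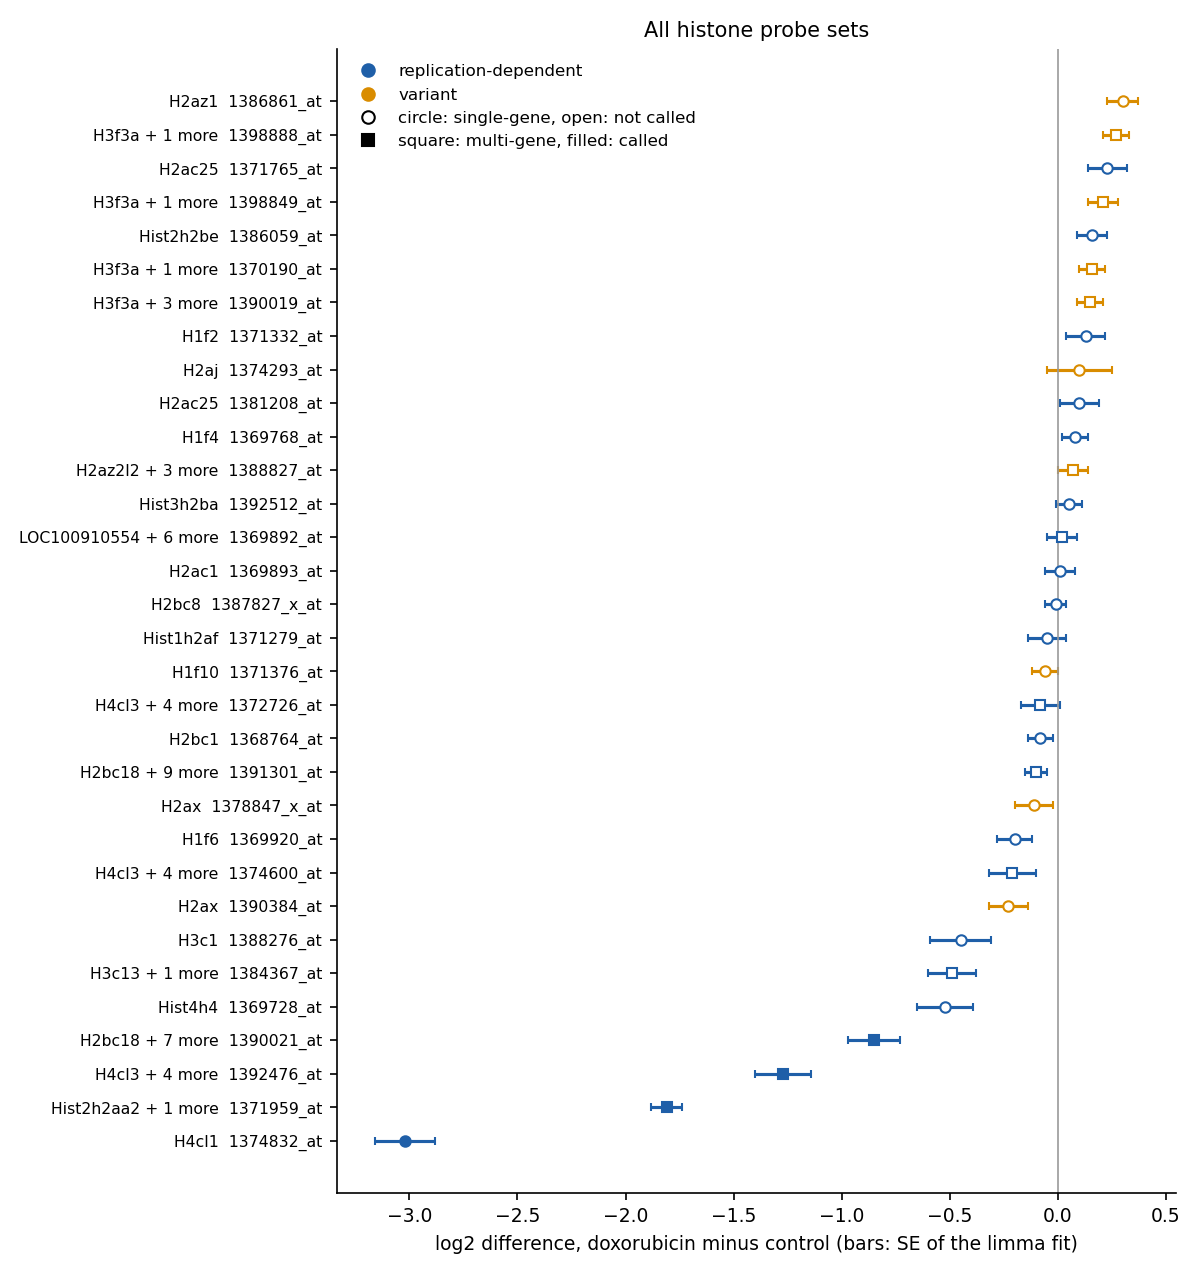
Log2 difference (doxorubicin minus control) of all 32 histone probe sets, with the SE of the limma fit, coloured by class. The 4 filled points, all replication-dependent, run from -3.02 to -0.85, while the 10 variant probe sets lie between -0.23 and 0.30.

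Variant histone messages moved little, and none was called. Of the 10 variant probe sets, 7 had positive and 3 negative differences, and limma without adjustment gave p under 0.05 for 5 higher and 1 lower. H3.3 probe sets, which share gene symbols, made up 4 of the 7 positive and 4 of the 5 higher ones. The median difference of the variant probe sets was 0.13, that of the 22 replication-dependent probe sets was -0.08, and that of all probe sets was -0.0019. The classes differ in brightness: 8 of the 22 replication-dependent and 0 of the 10 variant probe sets averaged in the dim range, where a fall can hardly show. With the dimmest 25% left out, the medians were -0.14 for replication-dependent and 0.13 for variant probe sets. Among single-gene probe sets the medians were -0.0624 for 5 variant and -0.0005 for 14 replication-dependent ones. Among multi-gene probe sets they were 0.1589 for 5 variant and -0.3515 for 8 replication-dependent ones. Groups did not overlap for 8 replication-dependent probe sets, all lower in doxorubicin hearts, among them the dim H2bc1 by a gap that rounds to 0.00, and for 4 variant probe sets, all higher. Of those 4 variant probe sets, 3 read H3.3. Over all probe sets 4.02% were apart in the lower and 4.52% in the higher direction.

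H2az1, which encodes the variant H2A.Z found around transcription start sites, had the highest difference of the 32. It stood at 10.70, 10.62, 10.45 and 10.52 log2 in control hearts and at 10.86, 10.82, 10.88 and 10.92 log2 in doxorubicin hearts. All doxorubicin hearts lay over all control hearts, by 0.11 log2 at the closest. The difference was 0.30 (SE 0.07) with an adjusted p of 0.0557 in limma. It was called without control 1 (0.34, adjusted p = 0.0296) and with array weights (0.0236), an intensity trend (0.0386), median centring (0.0436), an offset of 16 (0.0399) or repeated quantile normalization (0.0429). With the level of the hybridization controls as a covariate it was 0.19 (adjusted p = 0.872), and with the replicate number as a block 0.30 (adjusted p = 0.137), both uncalled. The 4-symbol probe set of H2az2 and its relatives H2az2l1, H2az2l2 and H2az2l3 stood at 9.47, 9.38, 9.21 and 9.27 log2 against 9.39, 9.37, 9.44 and 9.39 log2, with overlap (0.07, SE 0.07).

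H3.3, the H3 variant deposited outside S phase, is encoded by H3f3a and H3f3b and read by 4 probe sets that share these symbols, so they are not independent. The probe set with the largest difference (1398888_at) stood at 11.41, 11.46, 11.50 and 11.51 log2 in control hearts and at 11.77, 11.85, 11.64 and 11.72 log2 in doxorubicin hearts (0.27, SE 0.06, adjusted p = 0.0601 in limma). It was called with array weights (0.0466), an intensity trend (0.026), median centring (0.0469) or an offset of 16 (0.0339), and not with the hybridization covariate (0.32, adjusted p = 0.579) or the replicate block (0.27, adjusted p = 0.155). A further one (1398849_at) read 12.00, 11.81, 11.82 and 11.98 log2 against 12.21, 11.99, 12.19 and 12.07 log2 (0.21, SE 0.07), and its groups overlapped. The probe set 1370190_at read 11.84, 11.88, 11.84 and 12.01 log2 against 12.05, 12.05, 12.04 and 12.06 log2 (0.16, SE 0.06). The last (1390019_at), which also names H3f3c and H3f3l1, read 12.56, 12.48, 12.47 and 12.47 log2 against 12.64, 12.56, 12.76 and 12.62 log2 (0.15, SE 0.06). All 4 were thus positive by 1.11-fold to 1.21-fold, and none was called.

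**Figure D4:**
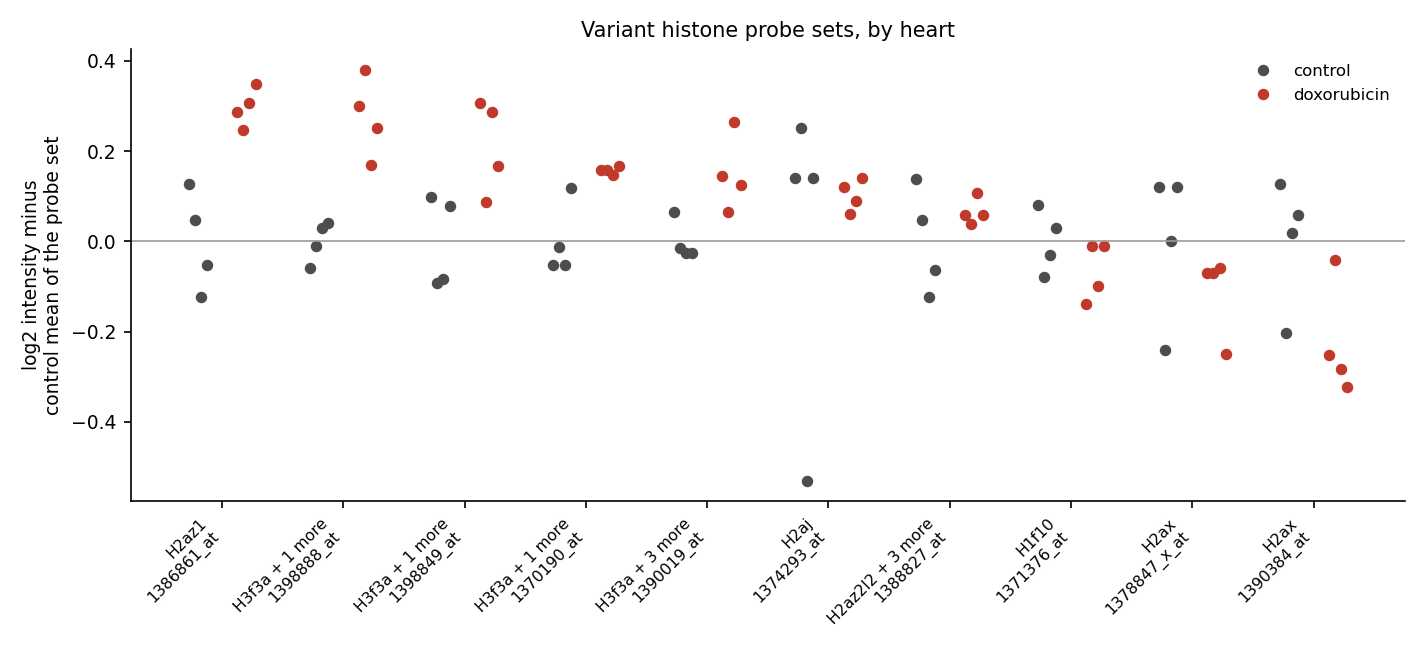
Log2 RMA intensity of the 10 variant histone probe sets in each heart, minus the control mean of the probe set (grey control, red doxorubicin). The red points of H2az1 and of the H3.3 probe sets lie mostly above the grey ones, with mean differences of 0.15 to 0.30, while H2aj shows control 3 at 6.34 log2, under the other control hearts at 7.01 to 7.12.

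H2ax, whose protein is phosphorylated at DNA breaks, was read by a pair of probe sets. The brighter (1390384_at) stood at 8.19, 7.86, 8.08 and 8.12 log2 in control hearts and at 7.81, 8.02, 7.78 and 7.74 log2 in doxorubicin hearts (-0.23, SE 0.09), and the groups overlapped. The dimmer (1378847_x_at) stood at 4.46, 4.10, 4.34 and 4.46 log2 against 4.27, 4.27, 4.28 and 4.09 log2 (-0.11, SE 0.09). H2aj, an H2A variant, stood at 7.01, 7.12, 6.34 and 7.01 log2 against 6.99, 6.93, 6.96 and 7.01 log2 (0.10, SE 0.15). H1f10, a replication-independent H1, stood at 4.98, 4.82, 4.87 and 4.93 log2 against 4.76, 4.89, 4.80 and 4.89 log2 (-0.06, SE 0.06). None of these separated the groups.

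The arrays themselves differed between the groups in one respect that touches every difference above. The 18 hybridization control probe sets, which read bacterial and phage RNA added to the labelled sample, averaged 10.21 to 10.57 log2 on control and 9.97 to 10.13 log2 on doxorubicin arrays. These ranges do not overlap, so this level and the drug cannot be told apart here. A call lost with the covariate therefore does not say which of them a difference follows. With that level as a covariate, H4cl1 (-3.14, adjusted p = 0.00371 in limma) and the H2A probe set of Hist2h2aa2 and H2ac18 (-1.85, adjusted p = 0.00169) were still called. The H4 probe set 1392476_at (-1.44, adjusted p = 0.051) and the H2B probe set 1390021_at (-0.94, adjusted p = 0.194) were not, although both differences were larger than without the covariate. Without any one of the 8 arrays, all 4 probe sets were called.

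Genes that serve histone messages and histone proteins were read from lists of known functions, each gene by its single-symbol probe set with the highest mean. The background by gene is 2.17% called lower and 0.802% called higher of 14217. For the unadjusted counts of the lists, the background in limma is 1814 lower and 2400 higher of all 31042 probe sets. Of 21 genes measured for the transcription and processing of histone messages, 2 fell and 0 rose (without adjustment, limma gave p under 0.05 for 1 higher gene), with a median of 0.04. These were Pou2f1, whose product Oct-1 binds the octamer (-0.36, SE 0.06), and Phax, an export adaptor of small nuclear RNA (-0.35, SE 0.06). Neither was called with the hybridization covariate or with the replicate block. Pou2f1 read 4.44 ± 0.08 log2 in control and 4.09 ± 0.01 log2 in doxorubicin hearts (SD, n = 4), the latter in the dim range, and Phax was called in 5 of the 8 fits that leave out an array, with a highest adjusted p of 0.071. Slbp, the stem-loop binding protein gene, stood at 0.10 (SE 0.21) and Npat, the coactivator of histone gene transcription, at 0.02 (SE 0.05). Slbp lay in the dim range. Cpsf3, the nuclease that cuts histone messages, stood at 0.15 and Ncbp2 at 0.35, uncalled.

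Of 31 histone chaperone and deposition genes, Ino80, a remodeller subunit, fell by 0.39 (SE 0.08). It was called in 2 of the 8 fits that leave out an array (highest adjusted p 0.14) and not with the hybridization covariate. There were 0 that rose in limma, where 3 were higher with p under 0.05 before adjustment, and the median was 0.05. Dnajc9, a histone co-chaperone gene, stood at 0.30 (SE 0.08), Ssrp1, a subunit of the FACT complex, at 0.20, and Ubn2, of the H3.3 deposition complex, at -0.23. Hira, the H3.3 chaperone gene, stood at -0.18 and Daxx at 0.07, none of them called.

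Among 33 genes of histone-modifying enzymes, 3 fell and 1 rose, with a median of -0.04. Dot1l, the H3 lysine methyltransferase gene, stood at 6.10 ± 0.36 log2 in control and 4.99 ± 0.22 log2 in doxorubicin hearts (SD, n = 4), a fall of 1.11 (SE 0.17). The deacetylase gene Hdac5 fell by 0.91 (SE 0.12) and the demethylase gene Kdm6b by 0.51 (SE 0.09). Hdac1 rose by 0.50 (SE 0.11). Second probe sets of Dot1l (0.03), Hdac5 (-0.17) and Hdac1 (0.24) were not called. Among the other probe sets of this list, 1 of Crebbp, an acetyltransferase gene, was called higher (0.60) while its representative stood at -0.48 uncalled, and 1 of Kdm2a, a demethylase gene, was called lower (-0.42) while its representative stood at -0.20 uncalled. Leaving out an array, Kdm6b was called in 5 of 8 fits (highest adjusted p 0.0618) and Hdac1 in 2 of 8 (0.13), and with the hybridization covariate none of the 4 was called.

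No gene of DNA replication and S phase, the period in which replication-dependent histones are made, was called in limma of 27 measured, where 3 were higher and 0 lower with p under 0.05 before adjustment, and the median was 0.08. Pcna, the replication clamp gene, stood at 10.86 ± 0.04 and 11.09 ± 0.07 log2 (0.23, SE 0.06) and Rrm1, a ribonucleotide reductase subunit gene, at 0.37 (SE 0.12). The replicative helicase gene Mcm2 stood at 0.19, Cdk1 at 0.16 and the helicase gene Mcm5 at -0.11. The proliferation genes Mki67 (-0.03), Top2a (0.06) and Ccna2 (0.08) had group means of 3.49 to 4.70 log2.

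The tissue read as heart muscle, with 7 of 7 cardiomyocyte markers at 11.64 to 14.07 log2 on average, Myl2, Myh6 and Tnnt2 among them. No representative probe set of 39 markers of cardiomyocytes, atrial cells, fibroblasts, endothelium, smooth muscle, leukocytes and blood was called in limma (3 higher and 2 lower with p under 0.05 before adjustment), although a second Laptm5 probe set rose by 0.48. Of all 31042 probe sets, 2400 were higher and 1814 lower at that unadjusted limit. Atrial markers varied between single hearts, with summed intensities of 1214 to 10280 in control and 1441 to 20370 in doxorubicin hearts. Summed macrophage and leukocyte markers were 713.9 to 925.8 in control and 648.4 to 874.4 in doxorubicin hearts, and summed fibroblast markers 9798 to 16080 and 13290 to 17650. Summed endothelial markers were 2486 to 2670 and 2306 to 2766, smooth muscle and pericyte markers 1176 to 1717 and 1324 to 1622, and blood markers 234.7 to 303.1 and 232.1 to 370.4. The part of these cell types in the histone differences was not tested.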

How the data were processed

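RNA of 8 rat hearts was measured on 8 Affymetrix arrays. Per the submitters' processing notes, the authors made the deposited intensity values with RMA, which subtracts background, sets all arrays to one distribution and combines probes into a probe set value. Its version is not given in the sources used here. The intensity values are linear (array medians 29.917 to 31.037), so log2 was taken with no offset. RMA makes array distributions alike, so a shift of most transcripts would not show. There are no detection calls, and the number of arrays limits precision.

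Of 31099 probe sets, 57 AFFX controls were left out. Gene symbols are those of the platform annotation, brought up to date by gene ID with RefSeq GRCr8, used for names, overlaps and sequences only. Groups followed the sample titles. The 2 groups were compared in R 4.3.3 with limma 3.58.1 (lmFit, eBayes, no covariate), tested on simulated data, with two-sided Benjamini-Hochberg adjusted p over 31042 probe sets. Separate animals are inferred from the label wording, and otherwise p-values measure the spread between these samples.

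Members, classes, lists and the naming rule were chosen with earlier results of these data known. Named with values in every heart were called members, the 5 brightest and the 3 highest and lowest uncalled differences per class, and, chosen after seeing values, 1372726_at. From each list up to 4 genes were named by smallest p, and others (Slbp, Npat, Hira, Daxx, Mcm5, Mki67, Top2a, Ccna2, Crebbp, Kdm2a) after seeing values. Variant symbols were H1f10, H2ax, H2az, H2aj and H3f3, and all others were replication-dependent. Figures used Python 3.11.15 and matplotlib 3.10.9.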

Additional observations from a re-analysis of the deposited data

Results flagged for a closer look

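In 6 of 64 groups of 4 hearts, 2 for each of the 32 probe sets, a single heart stood apart from the others by Dixon's criterion, which chance meets in about 5% of groups. H2aj read 6.34 log2 in control 3 against 7.01 to 7.12 log2 in the other control hearts. The H3.3 probe set 1390019_at read 12.56 log2 in control 1 against 12.47 to 12.48 log2. H1f4 read 5.99 log2 in doxorubicin 4 against 5.88 to 5.89 log2. The dimmer H2ax probe set (1378847_x_at) read 4.09 log2 in doxorubicin 4 against 4.27 to 4.28 log2. H2bc1 read 3.57 log2 in doxorubicin 2 against 3.67 to 3.68 log2, and H2bc8 read 3.46 log2 in doxorubicin 1 against 3.36 to 3.38 log2, both in the dim range. None of these 6 probe sets was called in the comparison.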

How the results depend on the processing

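With all arrays, 4 histone probe sets were called lower and 0 higher. The number called lower, all replication-dependent, was 2 with the hybridization covariate and 4 to 5 without single arrays. The number called higher, all variant, was 2 with array weights, an intensity trend, median centring or an offset of 16 before log2, 1 with repeated quantile normalization, and 0 to 1 without single arrays (1 without control 1). These were H2az1 and the H3.3 probe set 1398888_at. No replication-dependent probe set was called higher and no variant one lower without any single array. The median difference was -0.10 to -0.06 for replication-dependent and 0.08 to 0.15 for variant probe sets without single arrays, and 0.03 for variants with the hybridization covariate, against 0.13. No called difference changed sign. In the related lists, histone message processing had 2 called genes, 0 with the covariate and 1 to 2 without single arrays (1 without control 3, doxorubicin 1 or doxorubicin 3). Chaperones had 1 called, 0 with the covariate, an intensity trend, median centring or the offset of 16, and 0 to 1 without single arrays (1 without control 1, control 2 or doxorubicin 4). Of the fits without single arrays, 2 called Ino80 and 1 called Dnajc9, which stood higher after doxorubicin. Histone modifiers had 4 called, 0 with the covariate and 2 to 5 without single arrays (2 without control 4, doxorubicin 1 or doxorubicin 3). DNA replication had 0 called, 1 with the offset of 16, and 0 without any single array, as had the list of other histone genes. The cause of these changes was not tested. Replicate numbers did not pair the hearts: deviations of same-numbered hearts correlated at 0.06, -0.04, -0.03 and -0.18, and no control heart matched the doxorubicin heart of its own number best. With the replicate block, 5 histone probe sets were called lower, and 0 genes in the processing list and 0 in the chaperone list.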

Other observations

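Histone-named probe sets outside the symbol rule were also read. Macroh2a1, a macroH2A variant gene, stood at 7.03 log2 in control and 7.25 log2 in doxorubicin hearts (0.22, SE 0.07), and its dimmer second probe set at -0.07. Macroh2a2 stood at 0.00 (SE 0.08) and -0.01. H4f3 read 4.22 and 4.58 log2 (0.35, SE 0.10), and H2al2l 5.53 and 5.71 log2 (0.18, SE 0.09). Cenpa, the centromeric H3 variant gene, read 3.84 and 3.76 log2 (-0.08, SE 0.06). None of these was called.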
